A study of Mus musculus with 2 samples.

Results

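Cxcr2, Csf3r and Il1r2 are 3 receptor genes that mark neutrophils, and they are described here as 3 of the 479 genes measured in place in sections of mouse tumours. They were chosen by name, and their rows were read in the count matrix of each section. The series concerns diffuse gastric cancer with a mutant form of the small GTPase RHOA. Xenium In Situ, an imaging assay that reads transcripts one by one on tissue and allots each to an outlined cell, was run on 1 section of RKP tumour and 1 section of EKP tumour. The RKP section came from a subcutaneous allograft of cultured RKP cells, and the EKP section from one of cultured EKP cells. For both, 3000000 cells mixed 1:1 with Matrigel, a basement membrane gel, were given subcutaneously on each flank of C57BL/6 mice aged 5 weeks. Tumours of similar final volume were embedded in paraffin. The labels neither spell out the letters nor say which line carries the mutant RHOA or whether a line is 1 clone. With 1 section per group there are no replicates, no test between the tumours is possible, and every interval below is a 95% interval for counting error only. Each barcode in the files is 1 segmented cell, and 19 barcode names occur in both sections.

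Neutrophils leave the bone marrow, enter tissue along chemokine gradients and live there for a short time. Cxcr2 encodes the chemokine receptor that drives this recruitment, and Csf3r the receptor for granulocyte colony-stimulating factor, which promotes the formation and survival of neutrophils. Il1r2 encodes a decoy receptor that binds interleukin-1 without signalling. It is made by neutrophils and also by some macrophages and by regulatory T cells. Csf3r is also made by monocytes, and Cxcr2 also by keratinocytes.

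The promoters of the 3 genes are shown because the genes were detected together in the same barcodes. Each is the window of 300 bases around the start that the RefSeq table of build GRCm38.p6 gives, on the plus strand, 5′ to 3′. The Cxcr2 window is chr1:74153744-74154043, the Csf3r window is chr4:126024409-126024708 and the Il1r2 window is chr1:40085843-40086142. The Cxcr2 window spans the first annotated base of the gene, while the windows of Csf3r and Il1r2 lie inside the annotated spans of these genes. Capitals mark matches, on either strand, to GAGGAA, the core bound by the myeloid factor PU.1.
Cxcr2: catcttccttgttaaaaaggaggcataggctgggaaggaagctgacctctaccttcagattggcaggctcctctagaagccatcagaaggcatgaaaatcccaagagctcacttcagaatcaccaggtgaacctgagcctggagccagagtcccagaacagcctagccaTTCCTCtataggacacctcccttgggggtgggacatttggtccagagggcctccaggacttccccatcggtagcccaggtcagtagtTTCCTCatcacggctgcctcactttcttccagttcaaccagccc
Csf3r: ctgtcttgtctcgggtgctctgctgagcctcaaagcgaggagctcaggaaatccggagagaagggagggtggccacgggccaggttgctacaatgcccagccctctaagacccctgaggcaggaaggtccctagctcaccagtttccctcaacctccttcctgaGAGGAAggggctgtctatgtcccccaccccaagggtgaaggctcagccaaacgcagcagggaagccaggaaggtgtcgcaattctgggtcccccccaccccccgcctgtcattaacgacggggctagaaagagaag
Il1r2: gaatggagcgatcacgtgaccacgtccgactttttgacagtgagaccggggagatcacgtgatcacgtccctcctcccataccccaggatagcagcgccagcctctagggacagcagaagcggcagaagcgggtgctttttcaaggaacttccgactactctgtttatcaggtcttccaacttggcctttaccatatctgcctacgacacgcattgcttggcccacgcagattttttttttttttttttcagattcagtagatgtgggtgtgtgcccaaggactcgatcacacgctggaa
The Cxcr2 window held 2 matches, both on the minus strand, the Csf3r window 1 and the Il1r2 window 0. The core is common, since it occurs in 28.3% of the 32851 windows of this length in the table. A second motif, TTGCNNAA of the C/EBP factors, was searched on both strands, did not overlap GAGGAA, and had 0 matches in the 3 windows against 10.8% of all windows. These are matches of letters, not sites.

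At the level of whole sections the 3 genes ranked between 99 and 170 of the 479 genes by summed counts in both tumours. Cxcr2 (ENSMUSG00000026180) had 926 counts per 1000000 gene counts (CPM) in RKP and 866 CPM in EKP. Csf3r (ENSMUSG00000028859) had 2020.0 CPM in RKP and 2393 CPM in EKP. Il1r2 (ENSMUSG00000026073) had 2176 CPM in RKP and 2502 CPM in EKP. The RKP over EKP ratios were 1.07 for Cxcr2 (1.05 to 1.09), 0.844 for Csf3r (0.836 to 0.852) and 0.870 for Il1r2 (0.862 to 0.878). No receptor passed a 2-fold difference, against 8.39% of 477 kept genes at least 2-fold higher in RKP and 34.8% at least 2-fold higher in EKP. The median ratio of the kept genes was 0.741, and 314, 254 and 267 of the 477 genes had a lower ratio than Cxcr2, Csf3r and Il1r2. The direction for Csf3r and Il1r2 depends on the scale. Per 100 barcodes, Csf3r had 35.0 counts in RKP and 29.0 in EKP, Il1r2 had 37.7 in RKP and 30.3 in EKP, and Cxcr2 had 16.0 in RKP and 10.5 in EKP. The sections differed in depth, with a median of 154 gene counts over 255744 barcodes in RKP and 84 over 261111 barcodes in EKP. The highest of the 20 negative control probes had 3.66 CPM in RKP and 9.84 CPM in EKP, far below each receptor.

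Most positive barcodes carried a single receptor molecule. Cxcr2 was counted in 8.44% of all RKP barcodes and 6.02% of EKP barcodes, and 57.1% of the positive RKP barcodes and 62.9% of the positive EKP barcodes had exactly 1 count. For Csf3r the share with exactly 1 count was 55.8% in RKP and 59.0% in EKP, and for Il1r2 it was 55.3% in RKP and 58.9% in EKP. The upper tail was short, with at most 15 counts of Cxcr2, 15 of Csf3r and 24 of Il1r2 in an RKP barcode and 13, 17 and 24 in an EKP barcode. Receptor counts had a larger share in barcodes with few molecules, above most of the panel in RKP but not in EKP. Barcodes under 40 gene counts held 1.08% of all gene counts in RKP but 8.96% of Cxcr2, 10.4% of Csf3r and 6.28% of Il1r2 counts. In EKP the same barcodes held 4.76% of all counts and 17.9% of Cxcr2, 23.6% of Csf3r and 14.0% of Il1r2 counts. In RKP the CPM there was 9.02 times that of deeper barcodes for Cxcr2, 10.7 times for Csf3r and 6.15 times for Il1r2, against a median of 1.64 times over the kept genes, and the receptors ranked 59, 46 and 88 of the 477 genes. In EKP it was 4.37, 6.17 and 3.25 times, against a median of 4.13 times, and they ranked 235, 212 and 252, with Il1r2 below the median. These shallow barcodes did not enter the values that follow, which use the 235115 RKP and 161996 EKP barcodes with at least 40 counts. Each of these was thinned at random to 40 counts, so that the chance of seeing a gene did not rise with depth.

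All 3 receptors were least frequent in barcodes with much Epcam, the epithelial adhesion gene that marks many of the injected tumour cells. In RKP, Csf3r was detected in 12.1% of 129342 barcodes with 0-1 Epcam counts (11.9 to 12.3) and in 1.98% of 73160 barcodes with 5 or more (1.88 to 2.08), a 6.12-fold difference (5.80 to 6.46). Cxcr2 was detected in 5.91% of the Epcam 0-1 barcodes of RKP and 1.11% of those with 5 or more, 5.30-fold (4.93 to 5.71). Il1r2 was detected in 11.4% and 2.80%, 4.07-fold (3.88 to 4.26). The folds were larger in EKP, with intervals apart from those of RKP, and least so for Il1r2. Its order turned round when cluster 9, described further on, was left out of the barcodes with 5 or more Epcam counts only. In EKP, Csf3r was detected in 13.8% of 101168 Epcam 0-1 barcodes and 1.01% of 42805 with 5 or more, 13.7-fold (12.5 to 15.2). Cxcr2 stood at 6.15% and 0.465%, 13.2-fold (11.5 to 15.3), and Il1r2 at 12.5% and 2.45%, 5.10-fold (4.79 to 5.44). A share at least 2-fold higher with Epcam 0-1 was common on the panel, at 50.4% of 476 genes in RKP and 64.7% in EKP. By the size of the fold, Csf3r ranked 59, Cxcr2 71 and Il1r2 116 of these genes in RKP, and 13, 16 and 115 in EKP. Among the Epcam 0-1 barcodes the sections were close, with RKP over EKP ratios of 0.961 for Cxcr2 (0.929 to 0.994), 0.874 for Csf3r (0.854 to 0.894) and 0.914 for Il1r2 (0.892 to 0.936). Among barcodes with 5 or more Epcam counts the ratios were 2.40 for Cxcr2 (2.05 to 2.81), 1.96 for Csf3r (1.76 to 2.19) and 1.15 for Il1r2 (1.06 to 1.24). With 2-4 Epcam counts, RKP had Cxcr2 in 5.50%, Csf3r in 9.04% and Il1r2 in 10.3% of barcodes. These shares were nearer to those with Epcam 0-1 than to those with 5 or more. In EKP the class had 2.44%, 5.77% and 9.90%, where only Il1r2 was nearer to Epcam 0-1. The RKP over EKP ratios of this class were 2.25, 1.57 and 1.04.

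**Figure D1:**
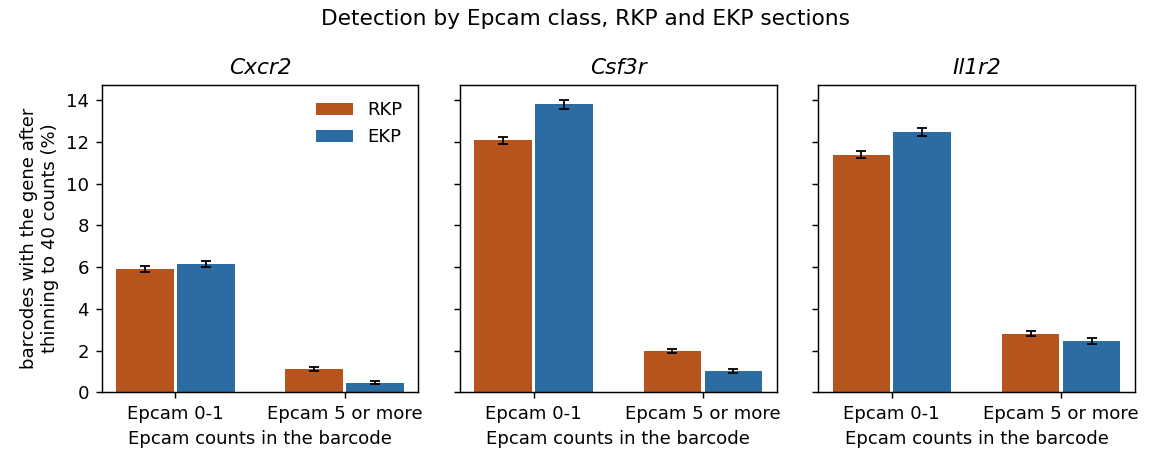
Bars give the percentage of barcodes with the gene after thinning to 40 counts, by Epcam count of the barcode, for the RKP section (left bar of each pair) and the EKP section, and lines give Clopper-Pearson 95% intervals. Each receptor is several times more frequent with Epcam 0-1, and with 5 or more Epcam counts Cxcr2 stands at 1.11% in RKP and 0.465% in EKP.

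Depth moved with this contrast. The median depth before thinning was 132 counts in Epcam 0-1 barcodes and 241 in those with 5 or more in RKP, and 133 and 261 in EKP. Within Epcam 0-1 barcodes, receptor detection fell with raw depth even after thinning. Cxcr2 was detected in 13.6% of RKP barcodes with 40 to 79 counts, 5.83% of those with 80 to 159, 1.64% of those with 160 to 319 and 0.518% of those with 320 or more. The same bands of EKP gave 13.3%, 6.40%, 1.69% and 0.309%. Receptor transcripts were thus a larger part of the RNA of shallow barcodes in both sections. Within the band of 80 to 159 counts, the Epcam fold was 2.39 for Cxcr2, 3.01 for Csf3r and 2.88 for Il1r2 in RKP, and 5.68, 6.12 and 3.86 in EKP. With 320 or more counts it was 1.19 for Cxcr2 in RKP (0.751 to 1.83) and 1.88 in EKP (0.938 to 3.71), intervals that hold 1, while that of Csf3r was 2.63 (2.07 to 3.33) in RKP and 4.57 (3.27 to 6.44) in EKP. A cluster of barcodes with both epithelial and macrophage genes, led by Ccl9, Cybb and Mmp8 (cluster 9 of the grouping by expression), moved with it too. This cluster held 8.51% of the RKP barcodes with 5 or more Epcam counts but 39.4% of those among them with a receptor. It was left out of the class with 5 or more Epcam counts only, and kept with Epcam 0-1. The RKP folds were then 9.26 for Cxcr2, 10.6 for Csf3r and 6.61 for Il1r2, and the EKP folds 15.9, 15.8 and 5.71. Since the cluster was rich in receptors, leaving it out on this side alone could only raise the folds. For Il1r2 the order of the sections turned round, with 6.61 (6.22 to 7.02) in RKP and 5.71 (5.34 to 6.11) in EKP. Folds without the cluster in both classes were not computed.

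The receptors occurred together more often than their single frequencies give. In Epcam 0-1 barcodes of RKP, 4711 held Cxcr2 and Csf3r where 923 were expected, a ratio of 5.10 (4.96 to 5.25). In EKP, 3935 held both where 860 were expected, a ratio of 4.58 (4.44 to 4.72). Of the Cxcr2 barcodes, 61.7% in RKP and 63.3% in EKP also held Csf3r. Cxcr2 with Il1r2 gave 4.64 (4.50 to 4.78) in RKP and 3.99 (3.85 to 4.14) in EKP. Csf3r with Il1r2 gave the lowest ratio of the 3 pairs, 3.39 (3.31 to 3.48) in RKP and 2.89 (2.81 to 2.97) in EKP. A ratio of 2 or more with a receptor was rare on the panel. It was reached by 6.95% of 374 genes for Cxcr2, 6.07% of 412 for Csf3r and 5.38% of 409 for Il1r2 in RKP, and by 6.41% of 468, 4.01% of 474 and 3.16% of 474 in EKP. All 3 receptors were found in 2840 RKP barcodes, 27.0 times the expected number, and in 2190 EKP barcodes, 20.4 times. Single receptors prevailed at this depth, as 35.0% of the receptor-positive Epcam 0-1 barcodes in RKP and 33.6% in EKP had 2 or more.

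In barcodes with 5 or more Epcam counts the receptors were rarer and their ratios higher. Such a ratio cannot exceed 1 over the larger single share, so its limit rises as the genes become rarer. A stronger association is therefore not read from it. The phi coefficient of detection was lower for all 3 pairs in both sections. For Cxcr2 and Csf3r it was 0.263 against 0.381 with Epcam 0-1 in RKP, and 0.148 against 0.367 in EKP. Cxcr2 and Csf3r were together in 297 RKP barcodes, 18.5 times the expected number (16.4 to 20.7), and in 45 EKP barcodes, 22.5 times (16.4 to 30.1). Csf3r and Il1r2 gave 9.28 in RKP and 7.39 in EKP, and Cxcr2 and Il1r2 gave 12.1 and 9.44. All 3 were found in 150 RKP barcodes and 15 EKP barcodes. The higher ratio came with a lower share of partners. Of the Cxcr2 barcodes in this class, 36.4% in RKP and 22.6% in EKP also held Csf3r. Barcodes with Il1r2 alone were 28.8% of the receptor-positive ones with Epcam 0-1 in RKP and 44.1% of those with 5 or more. In EKP they were 29.1% with Epcam 0-1 and 61.6% with 5 or more.

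**Figure D2:**
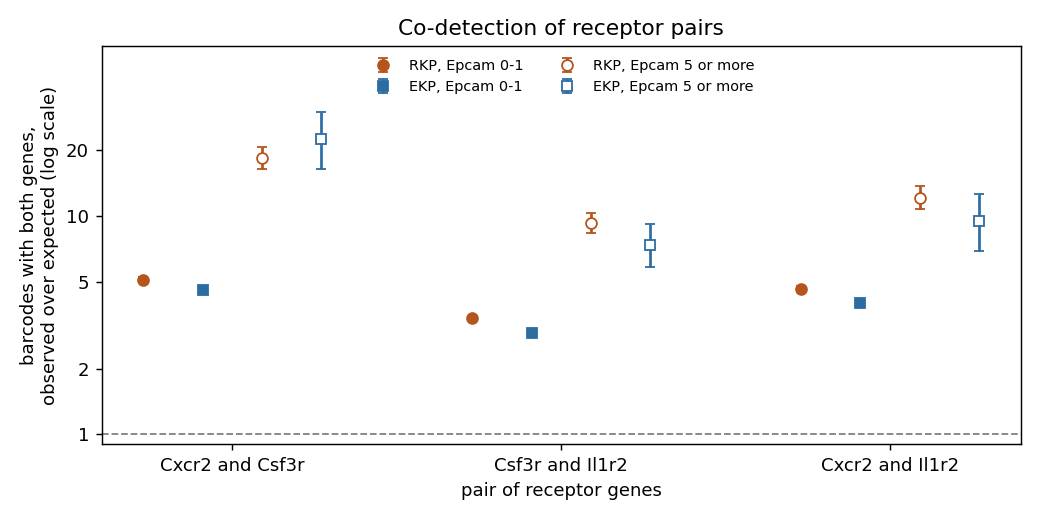
Points give the number of barcodes with both genes over the number expected from the single frequencies, on a log scale, with exact Poisson 95% intervals; filled points are Epcam 0-1 and open points Epcam 5 or more, circles RKP and squares EKP. All 12 ratios lie above 1 (dashed line), between 2.89 and 22.5.

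The 3 genes were each other's closest partners on the panel. By the phi coefficient of detection over Epcam 0-1 barcodes, the first and second partner of each receptor was another of the 3 in both sections, of 476 genes. Phi was 0.381 for Cxcr2 and Csf3r in RKP and 0.367 in EKP, 0.327 and 0.289 for Cxcr2 and Il1r2, and 0.318 and 0.286 for Csf3r and Il1r2. Behind them the same 3 genes took the next places for each receptor, Cd300lf, an inhibitory receptor of myeloid cells, Itgam, the integrin CD11b, and Cstdc4, a gene of the stefin A family. Cd300lf was found in 46.1% of Cxcr2-positive and 13.0% of Cxcr2-negative RKP barcodes, and in 46.5% and 12.7% of those in EKP. The next places held Mmp9, a gelatinase of neutrophil granules, Stfa2l1, another stefin A gene, and Hp, haptoglobin, for Cxcr2. Rac2, a GTPase of blood cells, Stfa2l1 and C5ar1, the receptor for complement C5a, followed for Csf3r. For Il1r2 they were Rac2, Laptm5, a lysosomal protein of blood cells, and Cd80, a ligand on antigen-presenting cells. Neither Mmp9 nor Stfa2l1 was among the 8 closest partners of Il1r2. With 5 or more Epcam counts the order held in RKP, but in EKP the closest partner of Il1r2 was Cd300lf (phi 0.146), with Csf3r in place 9 and Cxcr2 in place 12.

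Other neutrophil genes were more frequent in barcodes with more receptors, which bears on the label of the 3 genes. Of the 9 genes of the neutrophil list on the panel, 6 in RKP and 7 in EKP were at least 2-fold more frequent with all 3 receptors than with none, against 14.1% and 9.28% of 474 kept genes. Their median fold was 4.34 in RKP and 3.03 in EKP, against 0.510 and 0.725 over all kept genes. Stfa2l1 was found in 0.363%, 2.64%, 7.04% and 10.3% of RKP barcodes with 0, 1, 2 and 3 receptors, and in 1.09%, 7.33%, 20.2% and 24.0% of EKP barcodes. Mmp9 ran through 17.9%, 32.6%, 66.3% and 77.5% in RKP and 21.9%, 28.2%, 50.4% and 60.9% in EKP. Itgam reached 57.5% with 3 receptors in RKP and 56.1% in EKP, against 11.6% and 13.1% with none. Asprv1, an aspartic protease, reached 5.60% and 9.95%, against 0.728% and 0.628%, and Ifitm6, an interferon-induced membrane protein, 2.08% and 4.02%, against 0.478% and 0.656%. Alox5ap, needed for leukotriene synthesis, stood at 40.6% in RKP and 49.3% in EKP, against 19.7% and 16.3%. The collagenase gene Mmp8 passed 2-fold in EKP (2.29) and not in RKP (1.39).

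Ly6g and Mpo, the remaining members of the list, passed 2-fold in neither section. Ly6g, the classical surface marker of mouse neutrophils, was found in 2.11% of RKP and 1.69% of EKP barcodes with 3 receptors, against 1.30% and 1.90% with none. With 1 and 2 receptors it was found in 1.48% and 1.94% of RKP barcodes, rising at each step, and in 2.02% and 2.05% of EKP barcodes. Its level over the whole section was above that of Cxcr2, at 1617 CPM in RKP and 1257 CPM in EKP, and it was more frequent in Epcam-rich barcodes without a receptor. With 5 or more Epcam counts and no receptor, Ly6g was detected in 11.4% of 69649 RKP barcodes and 8.49% of 41281 EKP barcodes, and with 1 receptor in 9.54% and 5.85%. Among Epcam-rich barcodes Ly6g was thus less frequent with 1 receptor than with none. Whether it marks neutrophils in these sections was not tested. Mpo, myeloperoxidase of immature neutrophils, was detected in at most 0.243% of barcodes at any number of receptors. Of the markers named for neutrophils beside the receptors, the panel held Stfa2l1 and Ly6g, and the others were not analysed here. Depth ran the other way, with a median of 72 counts before thinning at 3 receptors in RKP and 70 in EKP, against 143 and 147 with none.

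Lists of other cell types differed in how they went with the receptors. Of 4 endothelial genes, 4 in RKP and 2 in EKP were at least 2-fold less frequent with 3 receptors than with none, against 32.1% and 24.7% of all kept genes. Of 4 T cell genes, 3 in RKP and 2 in EKP were. Of 7 macrophage genes, 2 were at least 2-fold less frequent in RKP and 0 in EKP, and none was 2-fold more frequent. Macrophage genes were instead most frequent with a single receptor. Mpeg1, a perforin-like gene of macrophages, was found in 31.0%, 44.1%, 39.1% and 33.6% of RKP barcodes with 0, 1, 2 and 3 receptors, and in 25.1%, 38.5%, 30.2% and 24.7% of EKP barcodes. The summed counts of the 7 macrophage genes per barcode were 2.69 with 1 receptor in RKP and 2.34 in EKP, against 2.08 and 1.55 with none. Ctla4 in RKP was also most frequent with 1 receptor, at 4.45%, against 2.20% with none and 0.845% with 3. The 6 epithelial genes had a median fold for 3 receptors over none of 1.54 in RKP and 0.678 in EKP, against the 0.510 and 0.725 of all kept genes. Cldn7, a tight junction gene, was 2.11-fold more frequent in RKP, at 0.880% with 3 receptors, against 0.417% with none, and none passed in EKP. Epcam itself, within its 0-1 class, was found in 11.7% of RKP and 5.11% of EKP barcodes with 3 receptors, against 6.78% and 5.39% with none. Summed epithelial counts per barcode were 0.711 in RKP and 0.471 in EKP with 3 receptors, against 0.793 and 0.858 with none. The part of epithelial genes in the results was not tested. All 4 squamous genes were at least 2-fold less frequent with 3 receptors in RKP, while in EKP Calm4, a calmodulin-like gene of skin, was 2.10-fold more frequent, at 0.457%, against 0.217%. The fibroblast gene Pi16 stood apart, at 6.37% in RKP and 9.09% in EKP with 3 receptors, against 2.22% and 3.59%, while the other 4 fibroblast genes were within 2-fold. Of the ligands and further receptors of these pathways, the panel held Ppbp, a platelet chemokine that binds Cxcr2, and Pf4, a second platelet chemokine. Ppbp was found in 1.23% of RKP and 1.55% of EKP barcodes with 3 receptors, against 0.779% and 2.01%, and Pf4 in 13.8% and 19.5%, against 16.1% and 21.7%. Neither passed 2-fold.

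**Figure D3:**
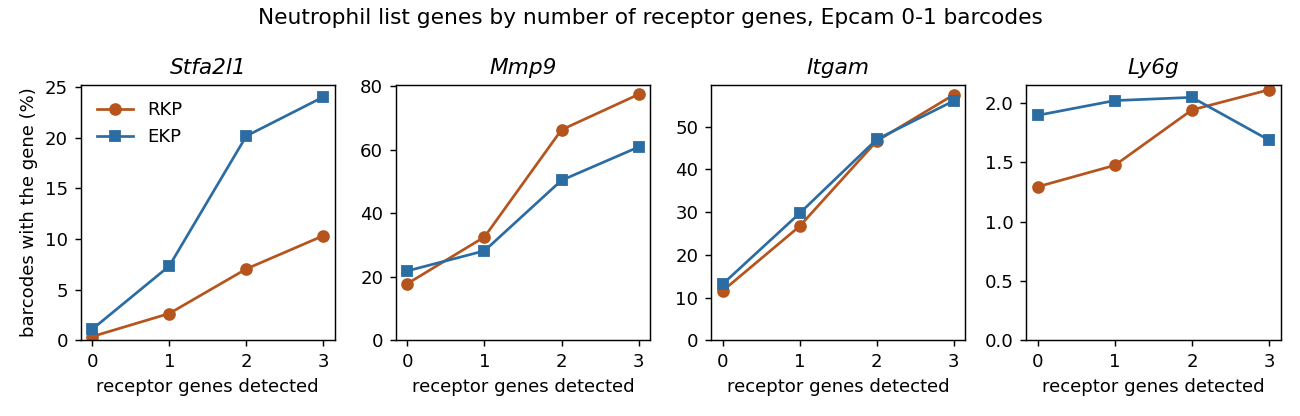
Lines give the percentage of Epcam 0-1 barcodes with each gene, after thinning to 40 counts, against the number of receptor genes detected in the same barcode (0 to 3), for RKP (circles) and EKP (squares), each panel with its own axis from 0. Stfa2l1, Mmp9 and Itgam run upward in both sections, and Ly6g stays between 1.30% and 2.11%.

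Barcodes were then grouped by the other 476 genes, with the 3 receptors left out, which gave 18 clusters. One of them, cluster 7, led in all 3 receptors in both sections. Its leading genes were Stfa2l1, Mmp9, Cstdc4, Abca13 and Cd300lf, and it stayed unnamed. It could not be named for neutrophils, because fewer than 3 neutrophil markers other than the receptors were measured. Cxcr2 was detected in 44.1% of its 6818 RKP barcodes and 44.2% of its 5369 EKP barcodes, Csf3r in 61.9% and 61.0%, and Il1r2 in 51.9% and 48.3%. Only the intervals of Il1r2, 50.7 to 53.1 in RKP and 46.9 to 49.6 in EKP, did not overlap between the sections. This closeness depends on the clustering resolution. At each resolution the leading cluster was picked as the one with the largest share of barcodes with all 3 receptors, so it is not the same group of barcodes. It held 11366 RKP and 17043 EKP barcodes at resolution 0.5, and 670 and 2759 at resolution 2. Of the Cxcr2 counts in RKP it held 27.5% at resolution 0.5 and 3.39% at resolution 2. At resolution 0.5 the leading cluster had Cxcr2 in 25.4% of RKP (24.6 to 26.3) and 16.2% of EKP barcodes (15.7 to 16.8), and at resolution 2 in 60.5% (56.6 to 64.2) and 36.8% (35.0 to 38.7). Csf3r and Il1r2 were likewise higher in RKP at both, with intervals apart. No receptor was found in 15.7% of the barcodes of cluster 7 in RKP and 18.2% in EKP. Within the cluster the observed over expected ratios in RKP and EKP were 1.15 and 1.18 for Cxcr2 and Csf3r. They were 1.09 and 1.12 for Csf3r and Il1r2, and 1.16 and 1.20 for Cxcr2 and Il1r2, with every interval above 1. In all other barcodes these ratios were 7.74 and 7.16, 4.53 and 3.67, and 6.44 and 5.29. Such a ratio cannot exceed 1 over the larger single share, which holds it low where the receptors are frequent. The ratios inside and outside the cluster are therefore not compared. The cluster held 29.2% of Cxcr2, 21.5% of Csf3r and 15.5% of Il1r2 counts in RKP and 38.9%, 23.3% and 14.3% in EKP, so most counts of each receptor lay outside it.

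Cluster 8, led by Atp6v0d2, Rsad2, Cstdc4, Ppbp and Arg1, came second for each receptor in both sections. It held Cxcr2 in 16.9% of RKP and 13.5% of EKP barcodes, Csf3r in 33.1% and 30.4%, and Il1r2 in 29.7% and 32.4%. It also stayed unnamed, since Stfa2l1 of the neutrophil markers and Arg1 of the macrophage markers were both among its 10 leading genes. The endothelial-like cluster 0 was taken as the background, since these genes are not known as markers of vessels. Cxcr2 was detected there in 2.22% of RKP and 1.88% of EKP barcodes, Csf3r in 4.66% and 3.80%, and Il1r2 in 3.96% and 3.95%, at a median depth of 140 counts in RKP and 151 in EKP, against 83 and 86 in cluster 7. Cluster 9 followed for Cxcr2, at 9.81% in RKP and 8.93% in EKP. Behind it the order differed, with cluster 5 at 4.79% in RKP and cluster 16, led by the muscle genes Ttn and Pvalb, at 5.71% in EKP at a median depth of 48 counts.

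**Figure D4:**
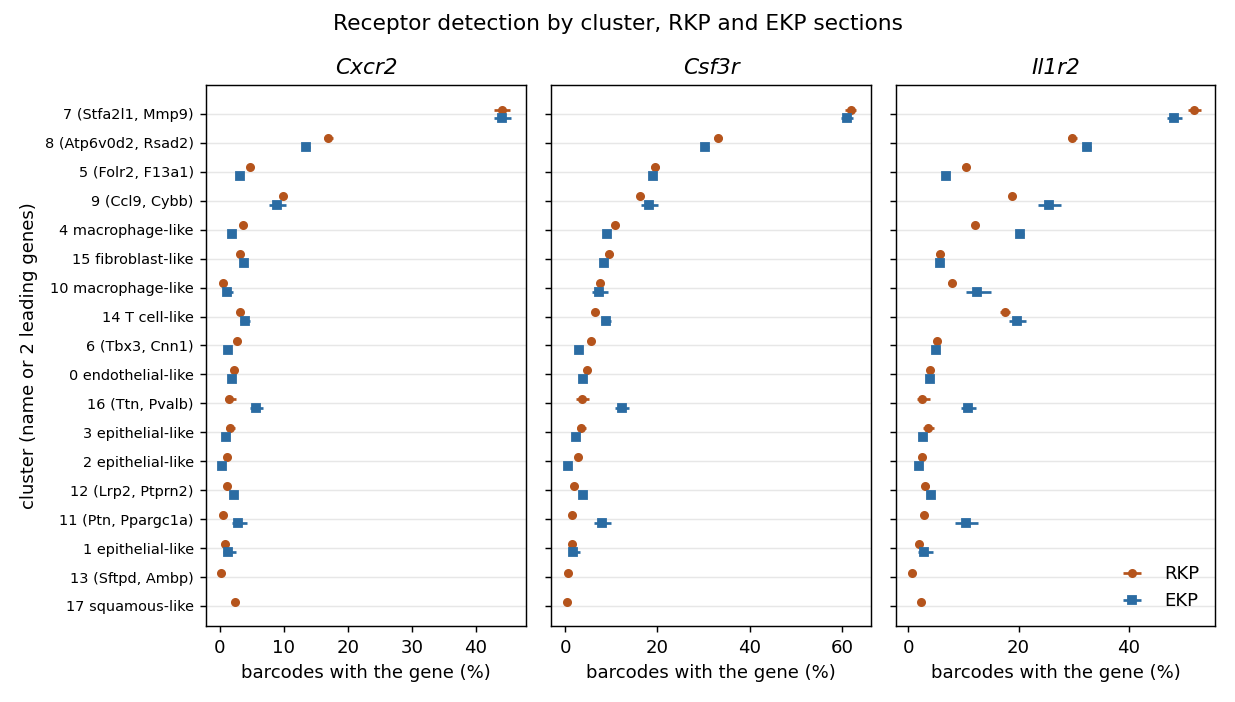
Points give the percentage of barcodes with each receptor, after thinning to 40 counts, in each cluster with at least 500 barcodes in the section, with Clopper-Pearson 95% intervals, for RKP (circles) and EKP (squares). Cluster 7 lies rightmost in all 3 panels, and the T cell-like cluster 14 is high for Il1r2 only, at 17.6% in RKP and 19.8% in EKP.

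Outside clusters 7 and 8 the receptors parted. The number of counts per Csf3r count shows this, although it depends on how well each gene's probes work and is read here only between groups of barcodes. Cluster 7 had 0.632 Cxcr2 counts per Csf3r count in RKP and 0.649 in EKP, and 0.812 and 0.724 Il1r2 counts. Csf3r was in excess in cluster 5, which was led by Folr2, F13a1 and Retnla, genes of tissue macrophages. Csf3r was detected in 19.5% of its RKP and 19.0% of its EKP barcodes, with 0.202 and 0.155 Cxcr2 counts and 0.635 and 0.358 Il1r2 counts per Csf3r count. In the macrophage-like cluster 10, led by Ms4a7, Gatm, Ms4a6c and Mrc1, Csf3r was detected in 7.49% and 7.37% of barcodes, and Cxcr2 in 0.565% (0.414 to 0.753) and 1.05% (0.482 to 1.99). The RKP share of Cxcr2 lay below the endothelial-like reference with intervals apart, as did those of clusters 1, 2, 11, 12 and 13. In EKP, with 9 of 855 barcodes, the interval held the reference.

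Il1r2 was in excess in T cell-like and in some macrophage-like barcodes. The T cell-like cluster 14, led by Cd3e, Cd8a, Ctla4 and Pdcd1, had 4.26 Il1r2 counts per Csf3r count in RKP (4.01 to 4.54) and 3.66 in EKP (3.37 to 3.99). Among barcodes with both the T cell receptor subunit Cd3e and Ctla4, the inhibitory receptor of regulatory and activated T cells, Il1r2 was detected in 23.1% of 1499 in RKP (21.0 to 25.3) and 18.5% of 346 in EKP (14.6 to 23.0). With Cd3e and the cytotoxic co-receptor gene Cd8a it was 6.34% of 836 in RKP (4.79 to 8.21) and 15.6% of 359 in EKP (12.0 to 19.8). The Cd8a-positive barcodes thus lay below the Ctla4-positive ones in RKP, while in EKP the intervals overlapped. Csf3r in the Ctla4-positive group was 5.87% in RKP and 6.36% in EKP. In the macrophage-like cluster 4, led by Cybb and Mpeg1, Il1r2 was detected in 12.1% of RKP and 20.3% of EKP barcodes, with 1.32 and 3.11 counts per Csf3r count. Il1r2 per Csf3r was also higher in Epcam-rich barcodes. It was 1.03 with Epcam 0-1 and 1.48 with 5 or more in RKP, and 0.994 and 2.89 in EKP. Cluster 4 held 1.51% of the receptor-positive barcodes with 5 or more Epcam counts in RKP and 11.9% of those in EKP. Epithelial-like clusters held more of them, with 42.8% in cluster 1 in RKP and 38.9% in cluster 2 in EKP. Over all their barcodes, these clusters had 1.498 and 2.98 Il1r2 counts per Csf3r count. In EKP, cluster 2 held 2960 of the 7305 Il1r2 counts in this Epcam class, and cluster 4 held 1204. Which barcodes raised the ratio was not tested.

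Cxcr2 per Csf3r was highest in the squamous-like cluster 17, which held 3978 RKP and 3 EKP barcodes and was led by the keratins Krt5 and Krt79 and by Calm4. It had 578 Cxcr2 counts in RKP and 32 of Csf3r, or 18.1 per Csf3r count (12.7 to 26.7), against 0.445 in the endothelial-like and 0.491 in the epithelial-like cluster 1 of the same section. Il1r2 had 364 counts there, 11.4 per Csf3r count. The Cxcr2 level of the cluster was 975 CPM, against 496 CPM in the endothelial-like cluster, while the share of barcodes with Cxcr2 was 2.34% (1.89 to 2.86), against 2.22%, and no order is read from that share. Csf3r was detected in 0.277% of the squamous-like barcodes (0.138 to 0.494), against 4.66% of the endothelial-like ones. Among 1352 RKP barcodes with 3 or more Krt5 counts, Cxcr2 was detected in 2.29% and Csf3r in 0.666%. Cluster 13 of RKP, led by Sftpd and Ambp, had the lowest share of Il1r2 among clusters with 500 or more RKP barcodes, 0.569%.

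The receptors were spread unevenly over the order of barcodes in the file, which may follow position on the slide only in part and was divided into 10 equal parts. In RKP part 1 had the highest share of each receptor, 10.3% for Cxcr2, 19.6% for Csf3r and 15.1% for Il1r2. The lowest shares were 1.62% for Cxcr2 and 3.79% for Csf3r in part 9 and 5.06% for Il1r2 in part 8, which makes 6.34-fold, 5.16-fold and 2.99-fold ranges. In EKP the ranges were smaller, at 2.44-fold for Cxcr2 (2.71% in part 1 to 6.62% in part 9), 2.09-fold for Csf3r (6.67% in part 2 to 13.9% in part 5) and 2.30-fold for Il1r2 (6.63% in part 1 to 15.3% in part 8). Such unevenness was usual for the panel. By the coefficient of variation over the parts, Cxcr2, Csf3r and Il1r2 stood at percentiles 69.2, 63.5 and 43.4 of the kept genes in RKP and 42.6, 32.1 and 26.2 in EKP.

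Over the 10 parts, in Epcam 0-1 barcodes, the receptors ran closely together, with Pearson's r of 0.99 for Cxcr2 and Csf3r, 0.96 for Cxcr2 and Il1r2 and 0.95 for Csf3r and Il1r2 in RKP, and 0.90, 0.77 and 0.69 in EKP. The parts share a section, depth and cell make-up, so these are descriptions. The share in barcodes with 5 or more Epcam counts followed that with Epcam 0-1 in RKP, with r of 0.77 for Cxcr2, 0.83 for Csf3r and 0.86 for Il1r2, but not in EKP, with r of 0.16, -0.25 and 0.01. Some EKP parts rest on few detections, such as 5 Cxcr2 barcodes of 506 in part 6 (0.322 to 2.29%). The smallest RKP part of this class had 2747 barcodes. No difference between the sections is read from these values. Co-detection was above 1 inside each part as well. Within single parts of RKP the ratio of Cxcr2 and Csf3r ran between 2.44 and 10.3 with a median of 4.97, and in EKP between 3.50 and 5.33 with a median of 4.56. Expected numbers formed within parts and summed gave 3.78 in RKP for this pair, against 5.10 over the whole section. Part 1 of RKP also had the fewest Il1r2 counts per Csf3r count, 0.794, and part 9 the most, 1.73.

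**Figure D5:**
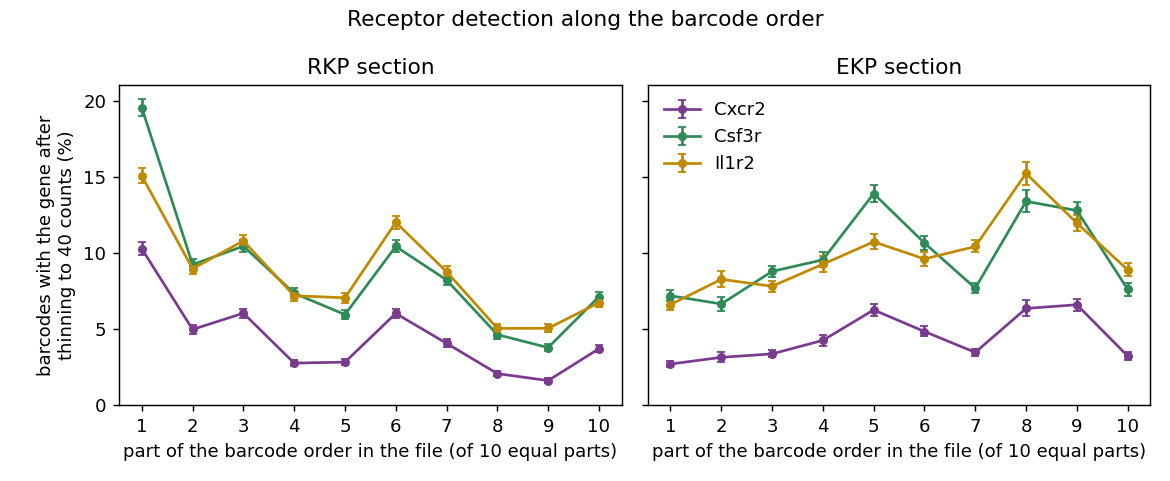
Lines give the percentage of barcodes with each receptor, after thinning to 40 counts, in each of 10 equal parts of the barcode order in the file, for the RKP section (left) and the EKP section (right), with Clopper-Pearson 95% intervals. The RKP section starts at its highest values, 19.6% for Csf3r, and is lowest in parts 8 and 9, while the EKP section peaks in parts 5, 8 and 9.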

How the data were processed

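RNA was measured with Xenium In Situ in 1 RKP and 1 EKP section of paraffin-embedded tumour. The deposited values are raw transcript counts per gene and segmented cell, with no normalization by the authors, per the file headers. The submitters' processing notes list Seurat 4.4.0 with no role. Not given in the sources used here are the segmentation and any quality limit. Sections were grouped by title. Section depth is given with the results.

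From the counts, CPM per section were computed, and a gene was kept when its sum in at least 1 section was above that of every negative control probe there. Barcodes with 40 or more gene counts were thinned at random to 40 with a fixed seed. Epcam classes use the deposited count. Expected co-detection is the product of the single shares. Shares have Clopper-Pearson intervals, ratios exact conditional binomial intervals, and observed over expected exact Poisson intervals, all at 95%. A 2-fold difference is a rule of size, with a floor of 3. In the Epcam folds every number of detected barcodes under 3 was raised to 3. Clusters (scanpy 1.11.5, python-igraph 0.11.9) used 476 genes, 30 principal components, 15 neighbours and Leiden resolution 1, and a cluster was named when at least 3 markers of a class passed 100 CPM and 2-fold the median cluster and its 10 leading genes held more markers of that class than of others. Naming also required a minimum share of the measured markers of the class and a margin in mean marker level over the next class. Doublets were not called. The section ratios, the thinning and the co-detection value were tested on simulated data, and the clustering and its naming were not.

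The members and lists were chosen with earlier results of these data known. Named genes are the receptors, the neutrophil and pathway lists on the panel, and the 8 genes with the highest phi for each receptor, ranked by the lower section. Other genes, the Cd3e, Ctla4, Cd8a and Krt5 groups, the depth bands and the promoter motifs were chosen after their values were seen. Alternatives were other scalings, depths, Epcam classes, seeds, resolutions and parts of the barcode order.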

Additional observations from a re-analysis of the deposited data

Results flagged for a closer look

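Cxcr2 counts per Csf3r count had opposite signs of their Epcam contrast in the sections, but the EKP contrast was close to 0. The log2 of this ratio in Epcam 0-1 barcodes over those with 5 or more was -0.208 in RKP and 0.0203 in EKP. In RKP there were 0.440 Cxcr2 counts per Csf3r count with Epcam 0-1 (0.434 to 0.447) and 0.509 with 5 or more (0.491 to 0.527). In EKP there were 0.391 (0.384 to 0.397) and 0.385 (0.357 to 0.415), and these intervals overlap, so no difference is read in EKP. With Epcam 0 against 10 or more, EKP had 0.395 (0.388 to 0.402) and 0.404 (0.358 to 0.454), which turns its sign to that of RKP, with 0.426 and 0.485. The difference between the sections was not tested, since each has 1 section.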

How the results depend on the processing

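Values below are for Cxcr2, Csf3r and Il1r2, or for the pairs Cxcr2 with Csf3r, Csf3r with Il1r2 and Cxcr2 with Il1r2, in this order. The section ratios of Csf3r and Il1r2 turned round when counts were taken per barcode (1.21 and 1.25, with 1.53 for Cxcr2) or scaled by the median of ratios (1.14 and 1.17, with 1.44). In barcodes with 40 or more counts they were 1.14, 0.952 and 0.912. Thinning to 80 counts gave Epcam folds of 3.12, 3.88 and 2.90 in RKP and 8.72, 8.59 and 3.52 in EKP. Classes of 0 against 10 or more Epcam counts gave Epcam folds of 10.8, 13.2 and 6.47 in RKP and 30.9, 33.4 and 8.27 in EKP. No thinning gave Epcam folds of 2.60, 2.95 and 1.99 in RKP and 6.75, 6.09 and 2.31 in EKP. Thinning to 20 counts, chosen after seeing the data, gave Epcam folds of 7.01, 7.76 and 5.28 in RKP and 20.1, 18.3 and 6.49 in EKP. A further setting, chosen after seeing the data, left cluster 9 out of the class with 5 or more Epcam counts only. It gave Epcam folds of 9.26, 10.6 and 6.61 in RKP and 15.9, 15.8 and 5.71 in EKP. With Epcam left out of the depth the RKP fold of Csf3r was 5.39, and with another seed 5.78. Co-detection at 80 counts was 5.28, 2.94 and 4.51 in RKP and 4.89, 2.51 and 4.09 in EKP. Co-detection without thinning was 3.37, 2.17 and 3.12 in RKP and 3.10, 1.92 and 2.85 in EKP. Co-detection at 20 counts was 5.15, 3.50 and 4.79 in RKP and 4.18, 2.90 and 3.80 in EKP. Expected numbers formed within the 10 parts of the barcode order gave 3.78, 2.76 and 3.66 in RKP, and Epcam 0 alone gave 4.34 for the first pair in EKP. RKP over EKP ratios of detection were 0.879, 0.838 and 0.890 with Epcam 0 and 0.996, 0.839 and 0.906 at 20 counts. At clustering resolution 0.5 the leading cluster detected the receptors in 25.4, 37.6 and 30.6% of RKP and 16.2, 24.8 and 19.1% of EKP barcodes. At clustering resolution 2 the leading cluster detected the receptors in 60.5, 81.0 and 75.7% of RKP and 36.8, 74.5 and 56.1% of EKP barcodes. Over 20 parts of the barcode order the ranges were 15.7, 10.1 and 5.36 in RKP and 4.53, 3.67 and 4.09 in EKP. Il1r2 per Csf3r was 0.995 with Epcam 0 and 1.69 with 10 or more in RKP, and 0.907 and 3.42 in EKP, and Cxcr2 per Csf3r was 0.426 and 0.485 in RKP and 0.395 and 0.404 in EKP, where the sign of the Epcam contrast turned round. Of 140 values under these alternatives for 38 results, 52 stayed within the 95% interval of the value reported. Another 84 lay outside it, and 4, all of them section ratios, were scored as turned round. Turning round was not scored for the shares in the leading cluster or for counts per Csf3r count. The causes were not tested. Epcam folds and co-detection stayed above 1 under every one of these settings.

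No paired analysis was possible because each tumour has 1 section. Intervals cover counting error only, and no value separates the tumour lines from the sections. Segmentation can assign molecules of a neighbouring cell to a barcode, and the positions of cells are not used here.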
